A study of Mus musculus with 26 samples.

Results

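Collagens and laminins are the structural proteins of the extracellular matrix, and the rows described here are those of the deposited count tables whose symbols name a collagen chain or a laminin chain, plus Nid1, Nid2, Hspg2, Fn1 and Sparc. This rule gave 60 genes (44 collagen chains, 11 laminin chains and the 5 others) of 31977 genes in the joined tables. The libraries come from dorsal striatum of adult mice of the Drd2-TRAP line CP101, in which an Rpl10a ribosomal protein fused to EGFP marks the ribosomes of cells that use the Drd2 promoter. In TRAP (translating ribosome affinity purification) tagged ribosomes are pulled down with antibodies against EGFP, and the RNA bound to them is sequenced. All mice carried this transgene on a C57BL/6 background, crossed for at least 9 generations from FVB/N-Swiss Webster, and all had long sessions of intravenous self-administration of saline or cocaine.

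The 23 immunopurified libraries fell into 5 groups. Without withdrawal there were 3 libraries of saline mice, 4 of cocaine mice whose intake did not escalate (non-escalating) and 2 of cocaine mice whose intake escalated (escalating). After withdrawal there were 5 libraries of saline mice (saline withdrawal) and 9 of non-escalating mice (non-escalating withdrawal). A further 3 libraries were made from input RNA without purification, 1 each for saline, non-escalating and saline withdrawal. The titles name no batches but carry library numbers, and most also name an older number that the library copies. On that basis the libraries were divided here into set A (15 immunopurified, all groups) and set B (8 immunopurified, withdrawal only). Saline withdrawal set A replicate 2 has no such copy mark and was placed in set A by its number. Its table lists 32531 genes, like those of set B, while the other tables of set A list 32657. It was not tried as part of set B. As a set of its own it left the slope on the share of reads outside genes at 31 called genes and the group contrasts at 0. Neither the length of withdrawal nor the number of mice per library is stated in the sources used here. Since libraries are not said to come from separate mice, p-values reflect only how far libraries of a group spread.

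Gene counts ran from 3279457 to 19122303 per immunopurified library. Uniquely aligned reads assigned to no gene made up between 21.2% and 70.7% of an immunopurified library. In the saline, non-escalating and saline withdrawal inputs they made up 27.3%, 31.6% and 30.8%. Uniquely aligned reads left unassigned because they matched more than 1 gene made up 8.61%, 8.74% and 12.8% of these inputs. In the immunopurified libraries they made up 0.942% to 2.85%. The part of this difference in the comparison with inputs was not tested. Drd2, the receptor gene whose promoter drives the tag, was at 804 to 6678 CPM (gene counts relative to the scaled library size) in the 12 immunopurified libraries whose condition has an input, and at 411 to 550 CPM in the inputs. Of the 7 markers of D2 neurons, 6 were called higher in immunopurified libraries, while 5 of 7 astrocyte and 5 of 6 oligodendrocyte markers were called lower. Markers of vessel cells moved the other way from those of glia: the fold changes of all 13 endothelial and all 10 mural markers were positive, with 6 and 2 of them called.

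Every blood vessel of the brain sits on a basement membrane, a thin sheet in which laminin trimers and a network of type IV collagen are joined by nidogens and the proteoglycan perlecan. Endothelial cells, pericytes and astrocytes all contribute to it. Fibrillar collagens form the rope-like fibres of connective tissue, and in the brain they are made mainly by fibroblasts around larger vessels and in the meninges. Neurons also make a few collagens, among them transmembrane ones.

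Stretches before a RefSeq start of 3 genes called in the comparison of immunopurified with input libraries are printed here. With them is the stretch between the start sites of a pair of type IV chains that are transcribed away from each other. They come from RefSeq (GRCm38.p6), each as the 250 bases before the RefSeq start, read 5′ to 3′ on the gene's strand. The window of Col27a1 lies at chr4:63215162-63215411 (plus strand), that of Lama5 at chr2:180225860-180226109 (minus strand) and that of Col25a1 at chr3:130180595-130180844 (plus strand). In GENCODE M21 Col27a1 starts at 63214004 and Col25a1 at 130131501. Their windows thus lie inside the GENCODE genes, before a RefSeq start further downstream. The window of Lama5 adjoins its GENCODE start at 180225859. Capitals mark the GC box GGGCGG and the CCAAT box CCAAT on either strand.
Col27a1: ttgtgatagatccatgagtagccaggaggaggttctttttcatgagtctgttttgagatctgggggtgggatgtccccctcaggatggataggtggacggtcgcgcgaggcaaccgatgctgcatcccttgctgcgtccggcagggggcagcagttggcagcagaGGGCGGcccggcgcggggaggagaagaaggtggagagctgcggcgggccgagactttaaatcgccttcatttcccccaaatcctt
Lama5: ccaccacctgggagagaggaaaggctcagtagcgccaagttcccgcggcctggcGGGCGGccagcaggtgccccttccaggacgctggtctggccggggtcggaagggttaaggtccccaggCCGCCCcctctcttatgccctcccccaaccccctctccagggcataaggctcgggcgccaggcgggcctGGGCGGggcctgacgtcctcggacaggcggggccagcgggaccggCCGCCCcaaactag
Col25a1: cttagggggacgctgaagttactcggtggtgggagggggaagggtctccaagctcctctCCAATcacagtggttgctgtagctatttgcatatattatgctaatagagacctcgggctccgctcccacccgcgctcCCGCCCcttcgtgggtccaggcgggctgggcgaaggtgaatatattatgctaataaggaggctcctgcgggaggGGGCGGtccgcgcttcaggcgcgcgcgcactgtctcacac
Col4a3 and Col4a4: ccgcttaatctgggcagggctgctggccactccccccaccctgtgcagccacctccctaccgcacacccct

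The last line is the 71 bases between the starts of Col4a4 (minus strand) and Col4a3 (plus strand), chr1:82586850-82586920, and holds none of the motifs searched. The printed stretch of Lama5 holds 4 GC boxes, that of Col25a1 holds 2 and 1 CCAAT box, and that of Col27a1 holds 1 GC box. GC content was 72.4% for Lama5, 60.4% for Col25a1 and 59.6% for Col27a1, against a median of 52.4% for the same 250 bases over all RefSeq promoter windows. RefSeq windows (250 bases before to 50 after the start) matched 43 of the 60 genes, with 47 windows. Only the 250 bases before the start were searched. Of these 47, 26 held GGGCGG there, 15 held CCAAT and 5 held TATAAA on either strand, while the shares over all 32851 windows were 32.7%, 33.8% and 12.4%. The motifs do not overlap each other in letters, and these matches describe the sequence only. The type IV genes lie head to head in 3 pairs (GENCODE M21, GRCm38). Col4a1 and Col4a2 start at 11312826 and 11312805 of chromosome 8 and overlap at their first exons, Col4a4 and Col4a3 start 72 bases apart on chromosome 1, and Col4a6 and Col4a5 start 1309 bases apart on the X chromosome. Because the strand setting of the counting is not given, reads in the overlap of Col4a1 and Col4a2 cannot be assigned to 1 gene with certainty.

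The first comparison was between the 12 immunopurified libraries of saline, non-escalating and saline withdrawal mice and the 3 inputs, and asked which matrix transcripts the purification enriched or depleted. Few collagen and laminin genes passed the test, and most fold changes were positive. Of 55 genes that passed the low-count filter, 47 had positive fold changes, against 56.7% of all genes, and the median log2 fold change was 2.50 against 0.16 over all 15610 genes tested. An unadjusted p under 0.05 was reached by 26 of the 55 and by 26.3% of all genes. At an adjusted p under 0.05 (edgeR, quasi-likelihood, Benjamini-Hochberg), 5 were called higher (Col27a1, Lama5, Col4a5, Col1a2 and Col5a2) and 1 lower (Col25a1). Over all genes, 3.58% were called higher and 3.8% lower, while the called shares here were 9.09% and 1.82%. A total of 8 of the 55 had no count in any input and passed the filter only through the immunopurified libraries. So did genes whose inputs were all low. Among them were Col1a2 (highest input 0.309 CPM), Col1a1 (0.356), Col3a1 (0.155), Col4a3 (0.464) and Col4a4 (0.155). These shares and the count of positive fold changes thus carry no support of their own. Col27a1, Col4a5 and Col5a2 are among the 8, and Col27a1 was singled out beforehand because its inputs are at 0, so their values below are descriptions. Summed over the 13 endothelial markers, these immunopurified libraries held 299 to 8370 CPM and the inputs 82.6 to 854 CPM, and over the 10 mural markers 126 to 5257 CPM and 131 to 246 CPM. No marker of either list was at 0 in all inputs, and the part of these cells in the matrix values was not tested. In bulk RNA, fewer cells of a type and less RNA per cell cannot be told apart.

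The called genes depend on which inputs are used, since there are only 3. Without the non-escalating input 0 of the 6 remained called, and without the saline input 2 were called. Without non-escalating replicate 2 the count was 13, and without saline replicate 3 it was 10.

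**Figure D1:**
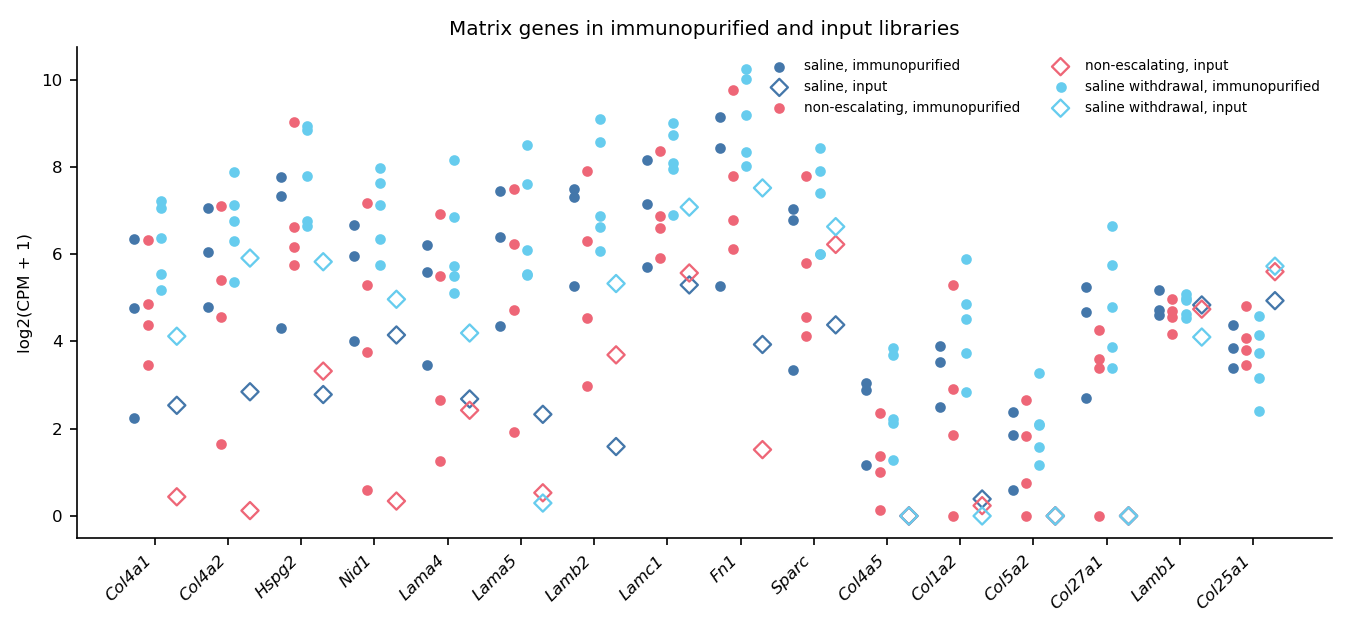
Levels of 16 matrix genes as log2(CPM + 1) in the 12 immunopurified libraries (filled circles, coloured by condition) and the 3 inputs (open diamonds). Col27a1, Col4a5 and Col5a2 sit at 0 in every input, Lamb1 lies at similar levels in both kinds of library, and Col25a1 is lower in all 12 immunopurified libraries than in any input. How many of all genes separate like Col25a1 was not counted.

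Among the type IV chains, Col4a1 and Col4a2 build the ordinary network of vessel basement membranes. Col4a1 was at 4.8, 0.356 and 16.4 CPM in the saline, non-escalating and saline withdrawal inputs and at 3.76 to 149 CPM (median 40.5) in the immunopurified libraries. In 10 of 12 immunopurified libraries it was above every input, but the groups overlapped and the log2 fold change of 3.03 ± 0.96 (SE) missed the threshold (adjusted p = 0.0643). Col4a2 was at 6.19, 0.0889 and 59.1 CPM in the inputs in the same order and at 2.14 to 236 CPM (median 71.2) in the immunopurified libraries, with a log2 fold change of 2.50 ± 1.23 (adjusted p = 0.208). That value was 1.5 without the non-escalating input and 4.85 without the saline withdrawal input.

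The rarer type IV chains, best known from kidney and other epithelial basement membranes, were at lower levels throughout. Col4a5 (X chromosome, 141475385 to 141689234, GRCm38) had 0 counts in all 3 inputs and 0.0997 to 13.3 CPM (median 3.55) in the immunopurified libraries. Taking 3 counts over the inputs together as the floor, it was at least 34.1-fold higher. It passed the filter only through the immunopurified libraries, and it was the only member above every input in all 12 immunopurified libraries. With inputs at 0 this means only that each of the 12 held a count of Col4a5. The share of all genes that separate in this way was not counted. Its partner Col4a6 had 0.309, 0.889 and 0 CPM in the inputs and up to 11.8 CPM in immunopurified libraries (log2 fold change 3.35 ± 1.60, adjusted p = 0.195). Col4a3 had 3 counts in the inputs together, and its ratio of immunopurified to input level was 31.8 (95% counting interval 10.9 to 154). Col4a4 had 1 count in the inputs, with a ratio of 46.5 (8.35 to 1838). Neither passed the test, and such ratios cover counting error only.

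Laminins are trimers of an alpha, a beta and a gamma chain, and alpha4 and alpha5 (Lama4, Lama5) are the alpha chains of endothelial basement membranes. Lama5 (chromosome 2, 180176373 to 180225859) was at 4.02, 0.445 and 0.227 CPM in the saline, non-escalating and saline withdrawal inputs. In the immunopurified libraries it ran from 2.77 to 361 CPM with a median of 70.7, above every input in 11 of 12. The log2 fold change was 5.82 ± 1.19 (adjusted p = 0.00958), and 4.48 (adjusted p = 0.00402) with the share of reads outside genes as a covariate. The call was lost in limma voom with library weights (5.56, adjusted p = 0.198) and without the non-escalating input (5.26, adjusted p = 0.0744). Of the 12 vessel basement membrane genes edgeR called Lama5 alone, while those called by DESeq2 included Col4a1, Lamb2, Lamc1, Nid2 and Hspg2. The direction was the same in both sets: means of 123 and 2.23 CPM for 9 immunopurified and 2 input libraries of set A, and of 52.9 and 0.227 CPM for 3 and 1 libraries of set B. Lama4 was at 5.41, 4.36 and 17.3 CPM in the inputs and at 1.38 to 282 CPM (median 45.8) in the immunopurified libraries, a log2 fold change of 2.43 ± 1.01 (adjusted p = 0.143).

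The beta chains of vessel laminins differed from each other. Lamb1 (beta1) was at 27.5, 25.7 and 16.1 CPM in the inputs and at 16.9 to 35.3 CPM (median 25) in the immunopurified libraries. The 2 kinds of library overlapped over most of this range, and the log2 fold change was 0.20 ± 0.31 (adjusted p = 0.717), or -0.051 without the saline withdrawal input. Lamb2 (beta2) was at 2.01, 11.9 and 39.1 CPM in the inputs and at 6.92 to 546 CPM (median 106) in the immunopurified libraries, with 9 of 12 above every input (2.72 ± 0.98, adjusted p = 0.0966). Lamc1 (gamma1), the gamma chain shared by most laminins, was at 38.2, 46.4 and 134 CPM in the inputs and at 50.8 to 509 CPM (median 193) in the immunopurified libraries (1.42 ± 0.54, adjusted p = 0.115). The difference between Lamb1 and Lamb2 was not tested. Of the 6 other laminin chains 4 had positive fold changes and none was called by edgeR, with 2 at an unadjusted p under 0.05.

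Nidogens and perlecan bind laminin to type IV collagen. Hspg2, which encodes perlecan, was at 5.88, 8.98 and 55.7 CPM in the inputs and at 18.7 to 520 CPM (median 133) in the immunopurified libraries, a log2 fold change of 3.05 ± 0.94 just above the threshold (adjusted p = 0.0578). Nid1 was at 16.7, 0.267 and 30.2 CPM in the inputs and at 0.503 to 252 CPM (median 70.9) in the immunopurified libraries (2.50 ± 1.17, adjusted p = 0.187). Nid2 was at 2.17, 1.60 and 0 CPM and at 0.252 to 29.3 CPM (median 7.96) in the same order of library kinds (2.72 ± 1.08, adjusted p = 0.126). Across the 12 vessel basement membrane genes all fold changes were positive, from 0.20 (Lamb1) to 5.82 (Lama5), with a median of 2.72.

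Fibronectin (Fn1) and Sparc, a matrix glycoprotein that binds collagen, gave unlike values. Fn1 was at 14.2, 1.87 and 182 CPM in the inputs and at 37.3 to 1203 CPM (median 334) in the immunopurified libraries, with 9 of 12 above every input (3.27 ± 1.18, adjusted p = 0.0983). Sparc was at 19.8, 73.6 and 98.0 CPM in the inputs and at 9.14 to 344 CPM (median 86.4) in the immunopurified libraries, where 2 libraries were below every input (0.54 ± 0.76, adjusted p = 0.690, and -0.031 without non-escalating replicate 3). The saline withdrawal input was the highest input for both, and also for Col4a1, Col4a2, Lama4, Lamb2, Lamc1, Nid1 and Hspg2. Summed over 13 endothelial markers that input held 854 CPM, against 132 and 82.6 CPM in the saline and non-escalating inputs. Its part in these results was not tested. Without it the fold change of Fn1 was 5.56 (adjusted p = 0.0381) and that of Hspg2 was 4.42 (adjusted p = 0.0418).

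The fibrillar chains were at low levels, and Col27a1, Col1a2 and Col5a2 were called higher, of which Col1a2 alone had counts in the inputs. Col27a1 (chromosome 4, 63214004 to 63334991), a fibrillar chain with a short triple helix known from cartilage, had 0 counts in the 3 inputs. In the immunopurified libraries of the saline group it was at 36.8, 5.51 and 24.4 CPM, in the non-escalating group at 0, 9.44, 18.2 and 11.1 CPM, and in saline withdrawal at 99.0, 52.6, 9.42, 13.6 and 26.4 CPM. Thus 11 of 12 libraries were above every input, and the library at 0 was non-escalating replicate 1, which held 24.4% of reads outside genes. Against the floor of 3 counts over the inputs, the mean of 25.5 CPM (median 15.9) was at least 188-fold higher. Such bounds cover counting error of the inputs only, not the spread between immunopurified libraries. The call of Col27a1 was lost in limma voom with library weights (adjusted p = 0.142) and in edgeR without the non-escalating input (adjusted p = 0.0555). Within set B alone the mean was 16.5 CPM (n = 3) against 0 in 1 input.

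Col1a2 (chromosome 6, 4504814 to 4541544), the second chain of type I collagen, was at 0.309, 0.178 and 0 CPM in the inputs and at 0 to 57.9 CPM (median 11.3) in the immunopurified libraries, with 11 of 12 above every input (log2 fold change 5.89 ± 1.51, adjusted p = 0.0279). This call was lost without any 1 of the 3 inputs (adjusted p = 0.0721 to 0.131), in limma voom (0.186) and with all 23 immunopurified libraries (0.0577). Col5a2 (chromosome 1, 45374321 to 45503282), a chain of the type V collagen that starts type I fibrils, had 0 counts in the inputs and up to 8.64 CPM in immunopurified libraries. It was at least 21-fold higher against the same floor, and in 11 of the 15 fits without 1 library it was not called. Col1a1, the partner of Col1a2, was at 0.155, 0.356 and 0 CPM in the inputs and at 0 to 15.7 CPM (median 5.95) in the immunopurified libraries (4.15 ± 1.49, adjusted p = 0.0955). Col3a1 had 1 count in the inputs and a ratio of 54.3 (counting interval 9.75 to 2146). Of 10 fibrillar chains that passed the filter 8 had positive fold changes, and 4 had no input count (Col5a2, Col5a3, Col24a1 and Col27a1). The median log2 fold change was 2.29 over the 6 with input counts, against 2.72 for the vessel basement membrane genes. Among these 6, Col1a1, Col1a2 and Col3a1 had no input above 0.356 CPM. They also passed the filter only through the immunopurified libraries, so the filter shaped the value of 2.29 too. With the 4 that had no input count, whose direction the filter fixed, the median was 4.92, or 4.27 with them set to their bound. The difference between both classes was not tested, and the spread within the fibrillar class was wide, from -1.87 (Col11a2) to 9.91 (Col27a1). Beside them, 7 of 9 tested fibroblast markers had positive fold changes and none was called by edgeR, with 3 at an unadjusted p under 0.05. Their sum was 7.68 to 290 CPM in the immunopurified libraries and 48.7 to 97.1 CPM in the inputs, and Dpt, 1 of the 10, was at 0 in every input.

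**Figure D2:**
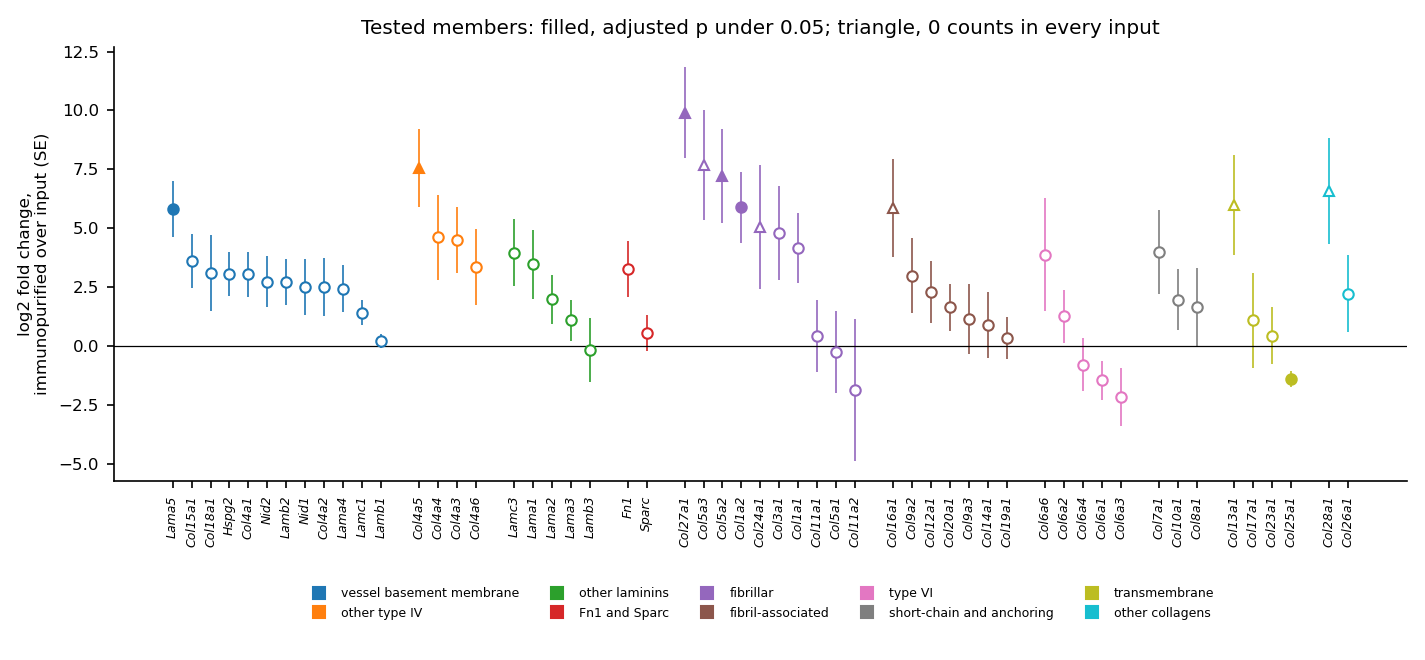
Log2 fold changes of immunopurified over input libraries with SE for the tested genes, grouped by class (1 of the 55 is not plotted). Filled symbols passed an adjusted p of 0.05 and triangles had 0 counts in every input, so the height of a triangle depends on the prior count of the fit. All 12 vessel basement membrane genes lie above 0, and Col25a1 is the filled symbol below 0.

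Col25a1 was the 1 gene called lower. It encodes a transmembrane collagen that neurons make (chromosome 3, 130131501 to 130599877). It was at 29.5, 47.4 and 51.8 CPM in the saline, non-escalating and saline withdrawal inputs and at 4.29 to 27.2 CPM (median 13.2) in the immunopurified libraries. All 12 were below every input, though the share of all genes that separate in this way was not counted. The log2 fold change was -1.40 ± 0.35 (adjusted p = 0.0247). Without any 1 of the 3 inputs the adjusted p was 0.0570 to 0.140, with log2 fold changes of -1.54 to -1.31. Of the type VI chains, which form beaded filaments around cells, 2 of 5 tested had positive fold changes and the median was -0.79. Col6a1 was at 28.8, 2.40 and 80.0 CPM in the inputs and at 2.12 to 24.8 CPM in the immunopurified libraries, and Col6a3 at 4.02, 1.78 and 9.09 against 0 to 5.24 CPM. Neither was called (adjusted p = 0.275 and 0.269), but with the share of reads outside genes as a covariate Col6a3 was called lower (-3.84, adjusted p = 0.0421). The fold change of Col6a1 went from -1.46 to 0.015 without the saline withdrawal input. All 7 tested fibril-associated chains had positive fold changes (median 1.64), 1 at an unadjusted p under 0.05, and edgeR called none.

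Of the genes that fold, cross-link, bind or cut the matrix, edgeR called none in this comparison. Their shares at an unadjusted p under 0.05, and those of the lists above, stand against the 26.3% of all genes. Of 27 tested enzymes of collagen assembly 19 had positive fold changes (median log2 fold change 0.51), 4 at an unadjusted p under 0.05. The leading ones were Plod2, a lysyl hydroxylase, at 4.0 ± 1.25 (adjusted p = 0.0607), Pcolce, an enhancer of procollagen processing, at 5.31 ± 2.09, and Loxl2, a lysyl oxidase, with no count in the inputs. Of 18 tested receptors 12 had positive fold changes (median 1.08), 8 at an unadjusted p under 0.05. The laminin-binding integrin chain Itga7 was at 5.16 ± 1.53 (adjusted p = 0.0517), the collagen receptor Ddr2 at 4.24 ± 1.28 (adjusted p = 0.0548) and Itgb3 at 4.61 ± 1.68. Of 11 proteases and inhibitors 5 had positive fold changes (median -0.13), 2 at an unadjusted p under 0.05, led by Timp3 (1.76 ± 0.80), Timp4 (-2.09 ± 0.97) and Mmp14 (-1.78 ± 1.01).

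Ranked by median level per kilobase of exon over the 23 immunopurified libraries, Fn1 led with 22.1 CPM per kilobase, followed by Lamc1 (16.6), Sparc (16.6) and Lamb2 (16). Hspg2 (7.66), Nid1 (7.63), Col4a2 (6.94), Col4a1 (4.70), Lama5 (4.01) and Lama4 (3.93) came next. Thus the 10 highest were Fn1, Sparc and 8 vessel basement membrane genes. Col27a1 stood at place 20 with 1.05 CPM per kilobase, the highest of the fibrillar chains. Col1a2 and Col1a1 followed at 0.55 and 0.45. Only 5 genes had a median of 0 (Col22a1, Col2a1, Col24a1, Col8a2 and Col9a1).

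Matrix levels varied widely between immunopurified libraries of the same group, and they rose with the share of reads outside genes. That share was tested as a slope within groups and sets in all 23 immunopurified libraries, in log2 units per 10 percentage points. Of 57 tested genes 30 had a positive slope and 1 (Col25a1) a negative slope at an adjusted p under 0.05. The background was large: 25.1% of all 16908 genes had such a positive slope and 22.8% a negative one, against 52.6% positive here. The slope of Lama5 was 1.15 ± 0.14 (adjusted p = 9.25e-07), of Lama4 1.1 ± 0.19, of Fn1 0.89 ± 0.16, of Col4a1 0.74 ± 0.14 and of Lamc1 0.55 ± 0.10. Slopes in fibrillar chains included those of Col1a1 (1.24 ± 0.25), Col1a2 (1.20 ± 0.23) and Col27a1 (0.95 ± 0.18, adjusted p = 0.000172).

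By class, 9 of 12 vessel basement membrane genes, all 4 rarer type IV chains, 4 of 6 other laminins, 4 of 10 fibrillar chains and both of Fn1 and Sparc had called positive slopes. None of the 6 type VI chains was called. The 3 vessel basement membrane genes not called were Lamb1 (-0.13 ± 0.09, adjusted p = 0.252), Col18a1 (0.48 ± 0.28) and Nid2 (0.52 ± 0.23). Lamb1 ran from 13.8 to 56.7 CPM over the 23 libraries while Lama5 ran from 2.77 to 390 CPM. Col25a1 had a slope of -0.36 ± 0.12 (adjusted p = 0.0167), which missed the threshold with RLE factors (-0.29, adjusted p = 0.0534), in set A alone (-0.38, adjusted p = 0.162) and in set B alone (-0.077, adjusted p = 0.821). It also missed it without saline withdrawal set A replicate 1 (adjusted p = 0.0690) or non-escalating withdrawal set A replicate 1 (0.0631). Positive slopes were also called for all 13 endothelial, all 10 mural and 8 of 9 fibroblast markers, and negative slopes for 6 of 7 D2 neuron markers. Within set A alone 27 of 57 matrix genes had called positive slopes, against 17.6% of all genes. Within set B alone 14 of 35 tested had them, against 8.57% of all genes.

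**Figure D3:**
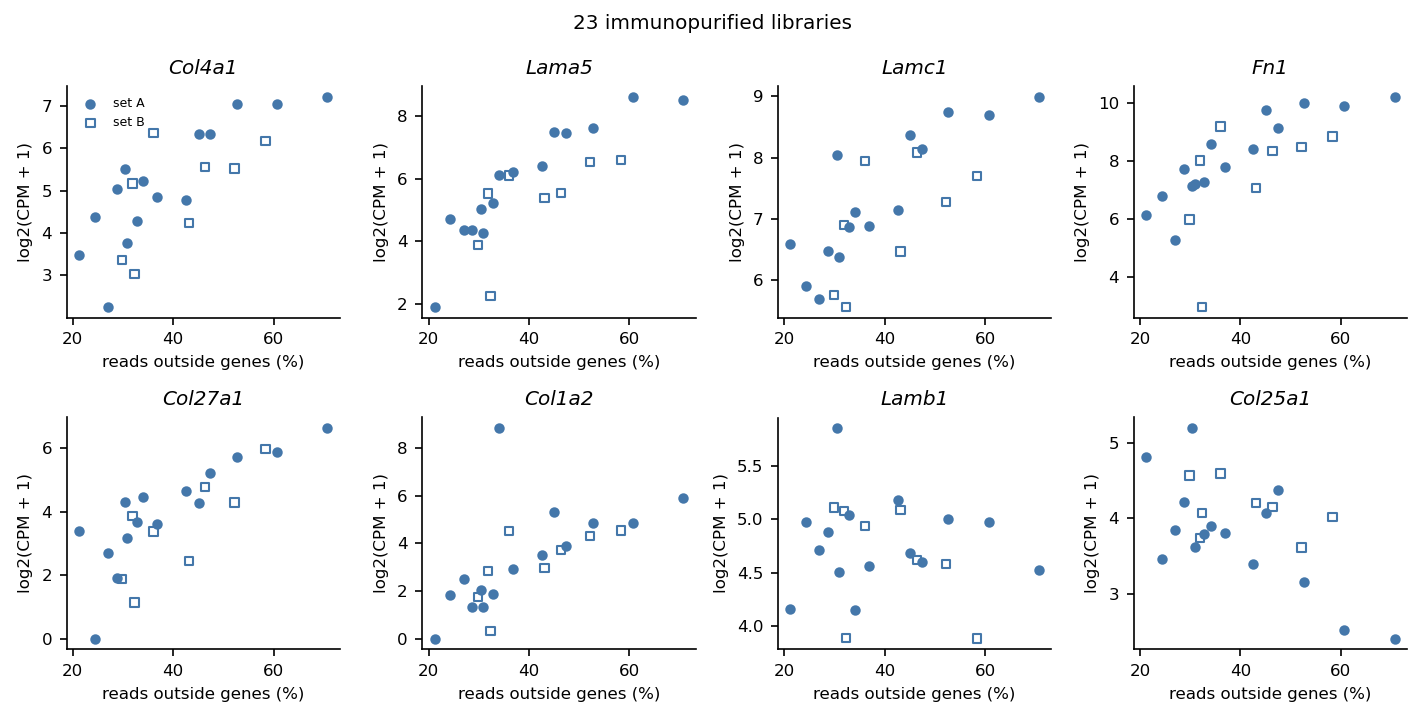
Level of 8 genes as log2(CPM + 1) against the share of reads outside genes in 23 immunopurified libraries, with set A as filled circles and set B as open squares. Col4a1, Lama5, Lamc1, Fn1, Col27a1 and Col1a2 are higher where the share is higher, Lamb1 shows no such slope past the test, and Col25a1 is lower. The point above 8 in the Col1a2 panel is escalating replicate 2.

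The 12 vessel basement membrane genes together ran from 105 to 2868 CPM over the 23 immunopurified libraries, and the 13 endothelial markers from 117 to 8370 CPM. Their ratio moved less, from 0.254 to 0.892 with a median of 0.400. In the 3 inputs the ratio was 0.432 to 1.22 (median 0.881), with the saline withdrawal input at 0.432 inside the range of the immunopurified libraries. Both sums share each library's depth and scaling, so the ratio is a description. The highest sums were in saline withdrawal set A replicate 1, the library with 70.7% of reads outside genes, and the lowest in non-escalating withdrawal set B replicate 5, with 32.3%.

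Chains that assemble into 1 molecule were compared across the 23 immunopurified libraries on log2(CPM + 1), in 6 pairs chosen with earlier results known. Col4a1 and Col4a2 had Pearson's r = 0.82 and Spearman's rho = 0.90 (both at a permutation p of 1e-05, which 100000 permutations cannot go below, adjusted p = 3e-05 and 2e-05). Nid1 and Nid2, which are alternatives rather than partners, had r = 0.85 and rho = 0.89 (permutation p = 1e-05 each). Col1a1 and Col1a2 had r = 0.70 and rho = 0.83 (permutation p = 0.00019 and 1e-05, adjusted 0.000285 and 2e-05). Within sets A and B the r was 0.81 and 0.94 for Col4a1 and Col4a2, 0.89 and 0.86 for the nidogens, and 0.66 and 0.84 for type I collagen. These relations held without the 2 libraries farthest from the median, with r of 0.87, 0.81 and 0.67. Libraries were permuted without regard to group or set, and no pairs beyond the 6 were compared. Whether r is higher for partner chains than for other matrix genes was not tested.

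For Col4a5 and Col4a6 r was 0.77 and rho 0.78 (permutation p = 5e-05 each), and for Col4a3 and Col4a4 r was 0.71 and rho 0.70 (permutation p = 0.00024 and 0.00026). Col6a1 and Col6a2, which assemble together in type VI collagen, had r = -0.17 and rho = -0.07 (permutation p = 0.445 and 0.738), so no relation was detectable in these libraries. After removal of group, set and the share of reads outside genes, r was 0.82 for the nidogens, 0.58 for Col4a1 and Col4a2, 0.35 for type I collagen, 0.21 for Col4a3 and Col4a4 and 0.15 for Col4a5 and Col4a6. With group and set alone removed, the same 5 values were 0.88, 0.82, 0.73, 0.82 and 0.78. Taking out the share as well thus lowered r for 4 of these pairs by more than for the nidogens.

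**Figure D4:**
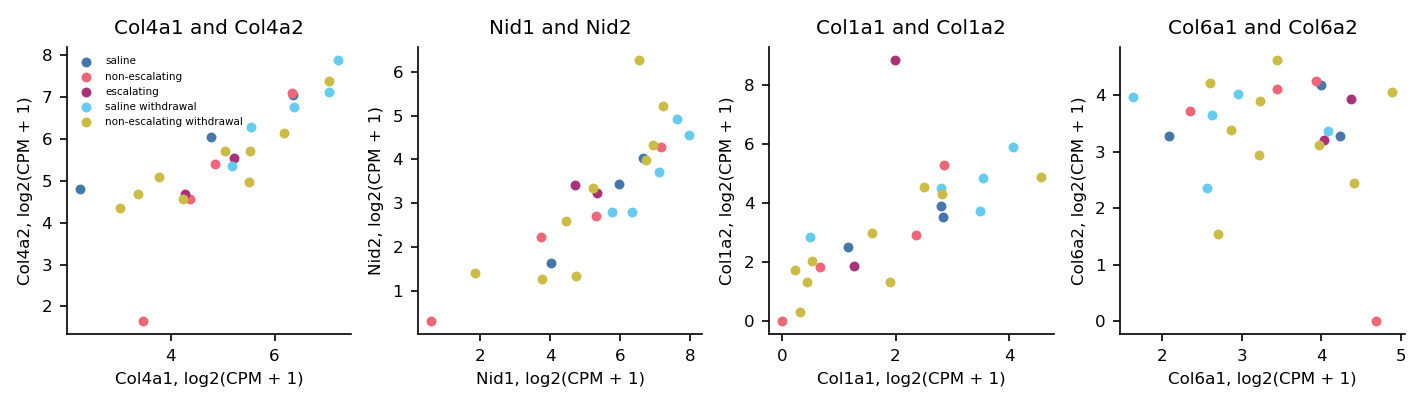
Levels of 4 pairs of chains as log2(CPM + 1) in the 23 immunopurified libraries, coloured by group. Col4a1 with Col4a2 and Nid1 with Nid2 lie along a line, the point far above the line for type I collagen is escalating replicate 2, and Col6a1 with Col6a2 show no line.

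The second set of comparisons was between the 5 groups of immunopurified libraries, and asked how cocaine intake, its escalation and withdrawal went with matrix transcripts. No gene of the 16908 tested was called in any of the 7 contrasts by edgeR, and so none of the 57 tested genes of the matrix was. DESeq2 and limma voom also called 0 of these genes in every contrast. Over all genes DESeq2 called 1 to 12 genes per contrast. Counts at an unadjusted p under 0.05 (edgeR) are given beside the share of all genes. Non-escalating against saline had 0 of 57 (2.11% of all genes), escalating against saline 3 (3.06%), escalating against non-escalating 1 (3.3%), non-escalating withdrawal against saline withdrawal 2 (5.21%), saline withdrawal against saline 3 (5.23%), non-escalating withdrawal against non-escalating 1 (4.51%), and the interaction of treatment with withdrawal 0 (2.03%). In limma voom with library weights these counts were 21 of 57 (11.6% of all genes) in non-escalating withdrawal against saline withdrawal and 16 of 57 (21.7%) in saline withdrawal against saline.

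The levels of Col4a1 show how the groups overlapped. It was at 80.4, 3.76 and 26.3 CPM in saline, at 19.6, 10.1, 79.6 and 27.9 CPM in non-escalating and at 18.3 and 36.4 CPM in escalating libraries. After withdrawal it was at 149, 132, 81.5, 35.1 and 46.0 CPM in saline libraries and at 7.17 to 131 CPM (median 32.1) in non-escalating libraries. The saline withdrawal libraries were thus mostly high, yet the other groups reached into their range. Saline withdrawal exceeded saline by 1.74 ± 0.92 on the log2 scale, and non-escalating withdrawal differed from saline withdrawal by -1.06 ± 0.61 (edgeR adjusted p = 0.782 and 0.749).

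Lamc1 was the basement membrane gene with the lowest p in both of these contrasts. It was at 282, 50.8 and 141 CPM in saline, at 59.3, 95.8, 329 and 117 CPM in non-escalating, and at 116 and 137 CPM in escalating libraries. In saline withdrawal it was at 509, 425, 245, 119 and 270 CPM, and in non-escalating withdrawal at 46.4 to 413 CPM (median 88.2). The log2 difference was 1.49 ± 0.68 for saline withdrawal over saline and -1.03 ± 0.45 for non-escalating withdrawal over saline withdrawal, with edgeR adjusted p of 0.782 and 0.749. These contrasts share the saline withdrawal libraries. Within set A the second difference was -1.15 and within set B -0.89.

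Lamb3, a laminin chain of epithelial basement membranes, went the other way at low levels. It was at 1.77, 3.26 and 2.42 CPM in saline and at 0.0558, 0.248, 0.409, 0.619 and 0 CPM in saline withdrawal libraries. These 2 groups did not overlap, but Lamb3 was picked for its low p, and the share of all genes that separate in this way was not counted. The saline libraries are all of set A, while those of saline withdrawal come from both sets. In non-escalating withdrawal it was at 0.446 to 6.34 CPM (median 1.79), in non-escalating at 0.498, 0.126, 5.13 and 4.78 CPM and in escalating libraries at 2.97 and 0.476 CPM. The log2 difference was -3.09 ± 1.35 for saline withdrawal over saline, 2.92 ± 1.06 for non-escalating withdrawal over saline withdrawal and 2.83 ± 1.51 for the interaction, with edgeR adjusted p of 0.782, 0.749 and 1. The other gene at an unadjusted p under 0.05 in saline withdrawal against saline was Col19a1 (-2.06 ± 0.91, adjusted p = 0.782).

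Of the 12 vessel basement membrane genes all had positive fold changes in saline withdrawal over saline (median log2 fold change 1.52) and 1 had a positive one in non-escalating withdrawal over saline withdrawal (median -0.91). The endothelial markers had the same signs, with 13 of 13 positive (median 1.53) and 0 of 13 positive (median -1.02). Over all genes the medians were 0.08 and 0.01. Summed endothelial markers were at a median of 2242 CPM in saline, 3002 CPM in saline withdrawal and 1092 CPM in non-escalating withdrawal libraries, with ranges that overlapped. The part of these markers, and of the share of reads outside genes, in the group values was not tested. In non-escalating withdrawal over non-escalating all 12 vessel basement membrane genes were again positive (median 0.88). Nid2 had the lowest p there (2.12 ± 0.95, edgeR adjusted p = 0.926), from 3.69, 0.252, 18.4 and 5.52 CPM to 1.43 to 75.7 CPM (median 9.28).

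In the contrasts without withdrawal, 1 of the 12 vessel basement membrane genes had a positive fold change in non-escalating over saline (median -0.33). In escalating over saline 0 did (median -0.49), and in escalating over non-escalating 4 did (median -0.29). Over all genes 49.5%, 48.2% and 48.4% were positive in this order. Of the 13 endothelial markers 5, 2 and 2 were positive. The values of Col1a2 turned on a single library. Col1a2 was at 455 CPM in escalating replicate 2 and at 2.65 CPM in escalating replicate 1, while the other 21 libraries held 0 to 57.9 CPM. Its log2 fold change was 4.55 ± 1.73 against saline and 4.28 ± 1.53 against non-escalating (edgeR adjusted p = 1 for both). Without escalating replicate 2 these values were -1.87 and -2.15. Col1a1 was at 2.96 CPM and Col3a1 at 1.32 CPM in that library, and both values lie inside the range of the other libraries. Col5a1 (-5.99 ± 2.66) and Col18a1 (-3.64 ± 1.75), the source of the fragment endostatin, were the other genes at an unadjusted p under 0.05 in escalating against saline. Both were at 0 or near it in the escalating libraries, with 0 and 0 CPM for Col5a1 and 0 and 1.16 CPM for Col18a1. With 1 library left out their fold changes ran from -6.59 to -4.81 and from -8.98 to -2.67. The lowest p in non-escalating against saline was that of Col22a1 (-3.56 ± 2.05), which stood at 0, 0 and 1.43 CPM in saline and at 0, 0, 0 and 0.106 CPM in non-escalating libraries.

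**Figure D5:**
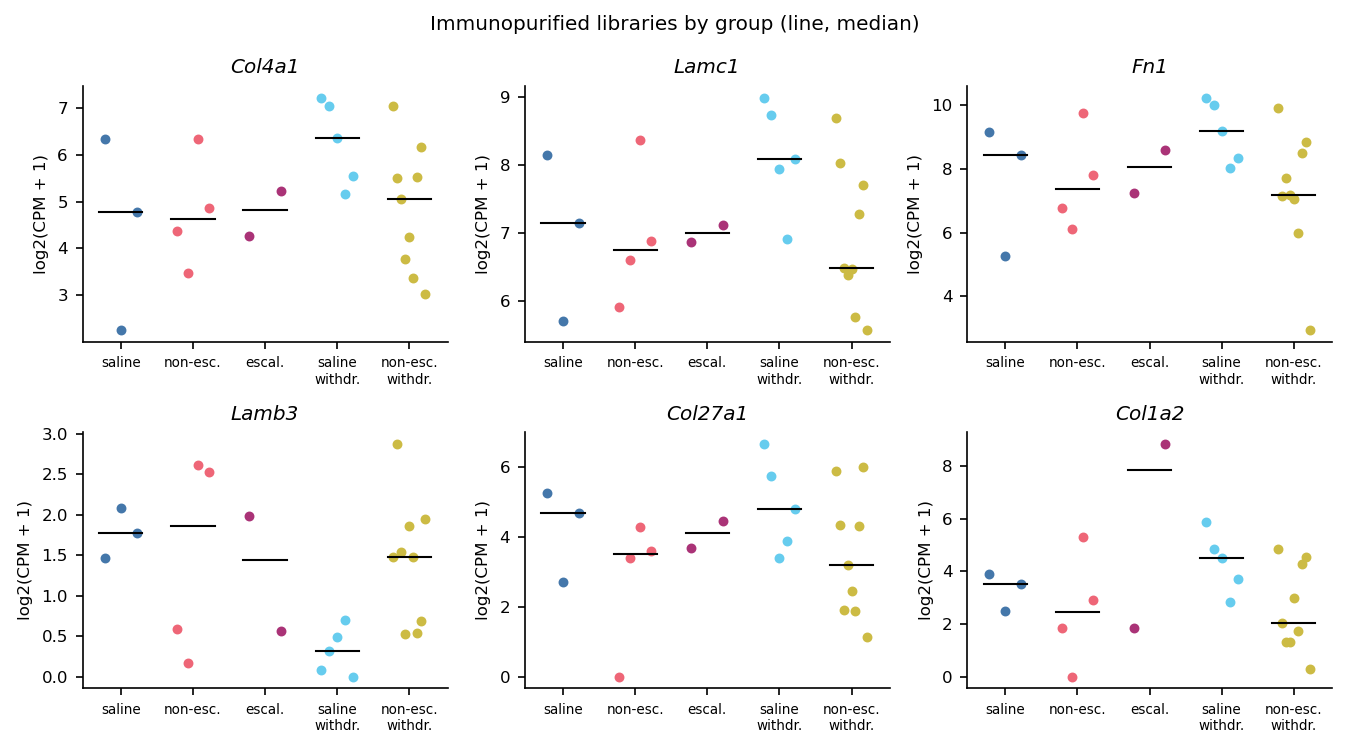
Levels of 6 genes as log2(CPM + 1) in the 23 immunopurified libraries by group, with a line at the group median of CPM. Libraries of a group spread over most of the range for Col4a1, Lamc1, Fn1 and Col27a1, and 1 escalating library holds the highest level of Col1a2. The saline and saline withdrawal libraries do not overlap for Lamb3, which was picked for its low p.

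Col27a1 was present in every group. In non-escalating withdrawal it was at 1.19 to 62.2 CPM (median 8.12) and in escalating libraries at 11.7 and 21 CPM, beside the values of the other groups given above. The 3 libraries with the most Col27a1 were saline withdrawal set A replicate 1 (99.0 CPM), non-escalating withdrawal set B replicate 4 (62.2 CPM) and non-escalating withdrawal set A replicate 1 (57.7 CPM), which also held the highest shares of reads outside genes (70.7%, 58.4% and 60.7%). Fold changes of Col27a1 between groups were -1.20 ± 1.17 for non-escalating over saline, 1.17 ± 1.20 for saline withdrawal over saline, -0.77 ± 0.87 for non-escalating withdrawal over saline withdrawal and 1.61 ± 1.12 for non-escalating withdrawal over non-escalating, on the log2 scale. None passed the test, with the lowest edgeR adjusted p at 0.794.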

How the data were processed

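The deposited files hold raw counts of reads per gene symbol, 1 table per library, which the authors obtained by aligning reads with STAR 2.0.0e to mm10 and counting with HTSeq, per the submitters' processing notes. The sources used here give neither the annotation release nor the strand setting or feature type. The tables list 32531 (10 tables) or 32657 genes (16 tables). They were joined on 31735 shared symbols and 242 pairs of old and current symbols, which held at least 99.53% of each library's gene counts. The closing entries of each table, which hold reads of no gene, gave the share of reads outside genes and entered no test.

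The tests were those of edgeR 4.0.16 in R 4.3.3 (quasi-likelihood F test after filterByExpr, TMM factors, Benjamini-Hochberg over all genes tested). Immunopurified and input libraries were fitted with condition and library set as terms (10 residual degrees of freedom). The 5 groups were fitted jointly with the set as a term (17), and again with the share of reads outside genes (16). CPM use TMM-scaled library sizes, errors of log2 fold changes are SE, and a count of 0 in the inputs was bounded at 3 counts over all inputs. Genes named in the text are 16 core genes, every called gene, and up to 3 genes per direction and comparison with the lowest p, and the same for lists of other matrix genes in the input comparison. Other settings tried were RLE factors, leaving the low-count filter out, DESeq2 1.42.0, voom of limma 3.58.1 with library weights, a replicate block, other covariates and sets, and leaving out each library. The genes, lists and tests were chosen with earlier results of these data known. Sequences are from RefSeq and positions from GENCODE M21. The fits were tested on simulated data. The values of 1 gene are not reported here by name.

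Libraries of a group were checked for copies: 0 of 56 pairs were identical, and chi-square per degree of freedom was at least 11.9. Libraries with the same number in different groups of a set had a median residual correlation of -0.18 over 25 pairs, against -0.07 over 78 pairs with different numbers, so the numbers were not taken to pair libraries.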

Additional observations from a re-analysis of the deposited data

Results flagged for a closer look

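Within groups of 4 to 10 libraries, a gene's highest or lowest library was compared with its neighbour by Dixon's test, in 144 groups of values. Only genes that were core, called or among the lowest p of a comparison were screened, not all 60. Chance alone flags about 1 in 20 such groups where values are normally distributed, and genes that vary together are flagged together. The test was run on CPM without a log, so that rate does not hold for skewed values. All flags but that of Col19a1 were at the high end. No cause was tested.

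Non-escalating withdrawal set A replicate 1, with 60.7% of reads outside genes, stood above the other 8 libraries of its group for Fn1, Sparc, 4 of the 12 vessel basement membrane genes and 3 other laminin chains. It held 967.73 CPM of Fn1, 609.93 of Hspg2, 452.11 of Lamb2, 390.31 of Lama5, 221.23 of Sparc, 166.3 of Col4a2, 103.69 of Lamc3, 72.792 of Lama3 and 63.414 of Lama1. The same library stood out for Col1a1 (22.507 CPM), Col4a6 (11.879), Col4a4 (7.2345), Col13a1 (5.8948) and Col16a1 (1.8756).

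Non-escalating withdrawal set A replicate 2, with 30.4% of reads outside genes, stood out for Nid2 (75.747 CPM), Lamb1 (56.736), Col6a3 (9.2447), Lamb3 (6.3371) and Col5a1 (5.2933). In non-escalating withdrawal set A replicate 3 the high gene was Col6a4 (7.7152 CPM).

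Saline withdrawal set A replicate 1, with 70.7% of reads outside genes, was high for Col16a1 (9.2575 CPM), Col5a2 (8.6441), Col6a6 (7.8075) and Col11a2 (1.7846).

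Among the 4 non-escalating libraries, replicate 3 was high for Hspg2 (520.37 CPM), Col1a2 (38.319) and Col14a1 (32.051) and low for Col19a1 (0.71225). Replicate 1 was high for Col6a6 (6.6788 CPM), and replicate 4 for Col22a1 (0.10616 CPM, where the other 3 were at 0).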

How the results depend on the processing

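The 3 inputs limit the comparison of immunopurified with input libraries. Its count of 6 called genes became 26 with DESeq2, 13 with no low-count filter, 2 with limma voom and 1 with a replicate block (Lama5), and 0 to 13 when 1 library was left out. In 4 group contrasts the replicate block left 1 or 2 genes at an unadjusted p under 0.05, and it called 0 genes in all 7 and 29 for the slope. The replicate numbers do not pair libraries. The slope had 29 to 33 called genes when 1 library was left out, not always the same ones, and 14 in set B alone, where 35 genes were tested. The signs that changed were all of genes not called. With voom Col17a1 went to -0.52 in non-escalating against saline and to 0.66 in the interaction, Col6a5 to 1.27 in saline withdrawal against saline and to -0.69 in the interaction, and Col14a1 to 0.23 in non-escalating withdrawal against non-escalating. With the share of reads outside genes as a covariate Sparc went to -0.48 in immunopurified against input. With 1 library left out, immunopurified against input ranged from -0.051 to 0.40 for Lamb1, -0.031 to 0.85 for Sparc and -2.32 to 0.015 for Col6a1. In the group contrasts the ranges were -3.11 to 0.025 for Col9a3 and -1.07 to 4.13 for Col6a6 (non-escalating against saline), -0.42 to 3.70 for Col17a1 and -1.87 to 5.55 for Col1a2 (escalating against saline), and -2.15 to 6.22 for Col1a2 (escalating against non-escalating). They were -3.69 to 3.88 for Col6a5 (saline withdrawal against saline), -2.75 to 4.92 for Col6a5 (interaction) and -2.01 to 1.61 for Col14a1 (non-escalating withdrawal against non-escalating). The cause was not tested.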

Other observations

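Laminin chains outside the list of vessel basement membrane genes used here were also detected in the immunopurified libraries. Lama2, the alpha2 chain whose loss causes a congenital muscular dystrophy and which brain pericytes and fibroblasts make, was at 0.629 to 113 CPM (median 26.4) over 23 libraries. Lamc3, the gamma3 chain, was at 1.13 to 122 CPM (median 20.7), and Lama1, the chain of meningeal and embryonic basement membranes, at 0 to 63.4 CPM (median 12.2). Slopes on the share of reads outside genes, in log2 units per 10 percentage points, were 0.88 ± 0.16 for Lama2, 1.05 ± 0.25 for Lama1, 0.89 ± 0.23 for Lamc3 and 1.01 ± 0.19 for Lama3, all called by edgeR (adjusted p = 8.42e-05, 0.00132, 0.0024 and 0.000119). The slope of Lamb3 was -0.31 ± 0.32 and was not called.

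Among other genes of the matrix pathway the same slope was called positive for 12 and negative for 3 of 27 assembly enzymes, and positive for 12 and negative for 2 of 19 receptors, against 25.1% of all genes positive and 22.8% negative. The collagen receptor chain Itga1 had 1.17 ± 0.13, the laminin receptor chain Itga6 1.14 ± 0.16 and the lysyl hydroxylase Plod2 1.27 ± 0.17. Of 13 proteases and inhibitors 5 were called positive and 4 negative, with Timp3 at 0.95 ± 0.17 and its relative Timp2 at -0.51 ± 0.08. These genes were picked for their low p after their values were seen.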
